A study of Mus musculus with 9 samples.

Results

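The 33 genes described here are Cd68 and 32 other genes of the lysosome and of its control, read by gene name from 1 table of counts in which 54532 genes were listed. All 33 were found, and 32 were abundant enough to test among the 14471 genes tested. The exception was Ctsk, which encodes a collagen-degrading cathepsin and had 0 to 15 counts per library. The set was chosen by function, but with the values of Cd68 in these 9 libraries known, to ask whether Cd68 varied with lysosomal genes rather than with leukocyte genes. How the members varied between these libraries is therefore given as a description.

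RNA came from HC11 cells, a mammary epithelial line of the mouse (strain C57BL/6 in the labels), in 3 groups of 3 libraries. Ctrl cells were untreated, and EpPT1 and EpPT2 cells were exposed to light of 660 nm. The fluence labelled for EpPT1 was 10 J/cm2 and that for EpPT2 was 20 J/cm2, whereas the treatment protocol gives 0.5 and 1 J/cm2 from a laser of 10 mW. Because the 2 sources conflict, no dose is attached to the group names. All groups were grown in the same medium with serum. The time between exposure and lysis is not stated. Nor do the labels say whether the libraries within a group were independent cultures, and p-values therefore reflect only the spread between libraries, which may be technical.

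Lysosomes are acidic organelles in which proteins, glycans and lipids delivered by endocytosis or autophagy are degraded. A proton pump, the V-ATPase, acidifies them, soluble hydrolases do the degrading, and heavily glycosylated membrane proteins line their inner surface. Many of their genes carry a short promoter element, the CLEAR element, that is built around the letters CACGTG and bound by the transcription factors TFEB and TFE3. Both factors are held in the cytoplasm by the kinase complex mTORC1 when nutrients are plentiful. In the mammary gland, lysosomal proteases are known for their part in the regression of the epithelium after weaning. CD68 is a LAMP-family glycoprotein of late endosomes and lysosomes that is widely used to mark macrophages.

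Promoter sequences are shown because the regulators Tfeb and Tfe3 are members and because several members varied together. RefSeq windows (build GRCm38.p6) reaching from 250 bases before to 50 after a gene's start were matched by symbol for 28 of the 33 genes, and not for Npc1, Ctsh, Ctsb, Atp6v1h and Asah1. CACGTG, which reads the same on both strands, was present in the windows of 10 of the 28 genes (35.7%), against 8.09% of the 27025 genes with a window. These 10 were Lamp1, Ctsa, Ctsd, Ctsf, Ctsl, Gaa, Gla, Glb1, Mcoln1 and Atp6v0d1. The longer palindrome TCACGTGA, which contains CACGTG, was present in 5 of the 28 (17.9%), against 1.12% of all genes. Those 5 were Ctsa, Ctsd, Gla, Mcoln1 and Atp6v0d1. The stretches shown lie before the start of the gene in both RefSeq and the count table, are written 5′ to 3′ on the gene's own strand, and carry CACGTG in capitals. They are given for Cd68, for the member that followed it most closely (Gla), for 3 members with the largest differences or smallest p in the comparisons (Ctsd, Ctsf and Mcoln1) and for the member with the most copies (Lamp1).
Cd68, chr11:69666171-69666290, minus strand: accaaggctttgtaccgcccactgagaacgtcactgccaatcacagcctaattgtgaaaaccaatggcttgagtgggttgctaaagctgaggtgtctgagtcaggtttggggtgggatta
Gla, chrX:134601136-134601255, minus strand: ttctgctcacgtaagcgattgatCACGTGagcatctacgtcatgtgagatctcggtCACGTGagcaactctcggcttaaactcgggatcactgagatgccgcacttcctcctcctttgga
Lamp1, chr8:13159041-13159160, plus strand: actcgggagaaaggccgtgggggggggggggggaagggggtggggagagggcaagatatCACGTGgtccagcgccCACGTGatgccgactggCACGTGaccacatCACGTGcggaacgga
Ctsd, chr7:142388039-142388077, minus strand: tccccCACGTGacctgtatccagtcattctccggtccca
Ctsf, chr19:4855009-4855128, plus strand: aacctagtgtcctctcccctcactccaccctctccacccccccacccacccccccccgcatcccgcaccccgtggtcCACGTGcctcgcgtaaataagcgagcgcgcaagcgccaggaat
Mcoln1, chr8:3500337-3500456, plus strand: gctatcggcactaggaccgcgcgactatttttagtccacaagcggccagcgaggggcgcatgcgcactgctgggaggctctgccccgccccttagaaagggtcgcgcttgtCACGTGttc
The Cd68 window held no CACGTG, that of Lamp1 held 4 copies, those of Gla, Ctsd and Mcoln1 held 2 each, and that of Ctsf held 1. For Ctsd and Mcoln1, 1 of the 2 copies lies inside the stretch shown. The Gla stretch was taken from the far end of its window, at positions −250 to −131 from the RefSeq start, where its 2 copies lie. The other stretches end next to whichever start, RefSeq or count table, lies further upstream. A match is a description of these letters and no evidence that a factor binds there.

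The 9 libraries held 14549787 to 17228929 counts each. They fell into sets in 2 ways, and the first, by mitochondrial share, did not follow the groups. Ctrl 3, EpPT1 3, EpPT2 2 and EpPT2 3 had a mitochondrial share of 6.06% to 7.48% of all counts, and the other 5 libraries one of 2.74% to 3.62%. The first principal component of log2 expression, with 53.6% of the variance, placed the same 4 libraries at 48.9 to 64.9 and the other 5 at −73.0 to −35.8. Log2 expression sloped down with gene GC content in the 3 Ctrl libraries and EpPT1 1 (−0.495 to −0.223 per 10 percentage points) and up in the other 5 (0.179 to 0.368). The second principal component, with 21.6% of the variance, placed the same 4 libraries at 12.5 to 48.3 and the other 5 at −45.1 to −12.8. This second split set every Ctrl library apart from every EpPT2 library. In EpPT2 minus Ctrl, exposure and the GC trend therefore cannot be told apart. The 33 genes together took 0.661% to 0.921% of the counts in Ctrl, 0.745% to 1.18% in EpPT1 and 0.738% to 1.18% in EpPT2, with the highest share of each group in a library of high mitochondrial share. Because the libraries formed separate clusters, no correlation over them was computed.

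Cd68 differed more between libraries than any other tested member. The gene (ENSMUSG00000018774) lies on the minus strand of chromosome 11, from 69664213 to 69666153 (GRCm38), and no other annotated gene overlaps it. Its level in CPM, the count scaled by library total and TMM factor, was 8.50, 45.1 and 102 in Ctrl 1, 2 and 3. It was 38.0, 11.0 and 98.1 CPM in EpPT1 1, 2 and 3. In EpPT2 it was 12.9, 89.5 and 87.4 CPM. Each group thus held both low and high libraries, and all 3 groups overlapped. The 4 high values were those of the 4 libraries with a mitochondrial share above 5%, Ctrl 2 and EpPT1 1 were intermediate, and Ctrl 1, EpPT1 2 and EpPT2 1 were low. The highest value was 12.1 times the lowest, against 1.43 to 4.50 times for the other tested members. The SD of log2 Cd68 over the libraries was 1.46, a value reached by 1.72% of the tested genes.

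The mean level of Cd68 (± SD, n = 3 per group) was 52.0 ± 47.4 CPM for Ctrl, 49.0 ± 44.6 CPM for EpPT1 and 63.3 ± 43.7 CPM for EpPT2. The fitted log2 difference was −0.09 (SE 0.95) for EpPT1 minus Ctrl, 0.28 (SE 0.95) for EpPT2 minus Ctrl and 0.37 (SE 0.95) for EpPT2 minus EpPT1. None passed edgeR's quasi-likelihood test (adjusted p = 0.998, 0.917 and 1.000). Leaving out 1 library at a time moved the 3 differences between −1.09 and 0.87, −0.22 and 1.24, and −0.11 and 1.37, so their direction depended on single libraries. With the 5 libraries of low mitochondrial share alone, where EpPT2 1 stands alone in its group, the EpPT2 minus Ctrl difference was −1.04.

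**Figure D1:**
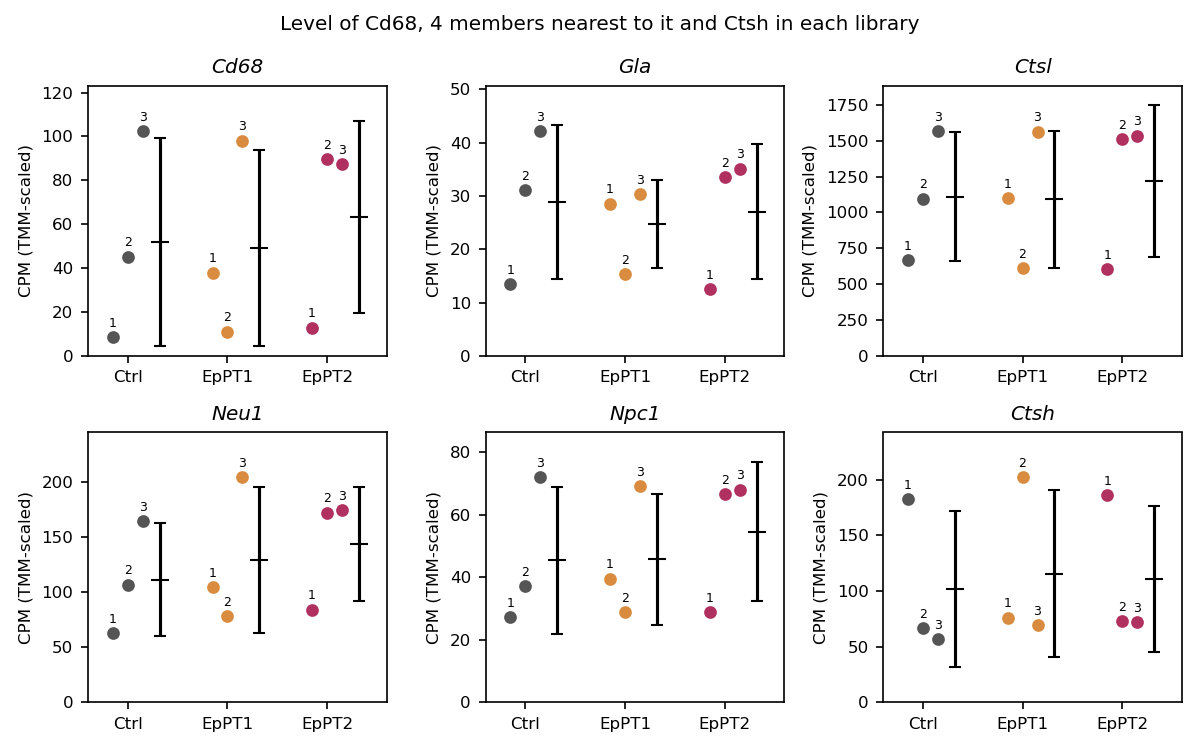
Level in CPM (TMM-scaled, linear axes from 0) of Cd68, of Gla, Ctsl, Neu1 and Npc1, which followed it most closely among the members, and of Ctsh, which followed it least. Points are libraries with their replicate number, and the bar beside each group is the mean ± SD (n = 3). Replicate 3 of each group and EpPT2 2 had the highest Cd68 values, at 87.4 to 102 CPM, and Ctsh had its highest values in Ctrl 1, EpPT1 2 and EpPT2 1.

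To describe which members followed Cd68, the SD over the 9 libraries of log2(gene/Cd68) was set beside the SD of log2 Cd68 itself: a gene that kept a fixed ratio to Cd68 would have an SD of 0, and a gene that did not vary would have the SD of Cd68, 1.46. The ratio varied less than Cd68 itself for 28 of 31 members, against 41.8% of the tested genes. It also did so for 24 of 29 other lysosomal hydrolases, 14 of 17 other lysosomal membrane genes, 15 of 21 autophagy genes, 7 of 13 other V-ATPase subunits, 5 of 10 genes of enzyme delivery, 7 of 17 regulators around mTORC1 and all 6 tested epithelial markers, so the trait was not confined to the members or to lysosomal genes. The median SD was 1.26 for the members and 1.53 for all tested genes. The 28 members include some that did not follow Cd68. Scarb2 (1.42) and Asah1 (1.39) were highest in Ctrl 1, where Cd68 was lowest. The points share their libraries, depth and the Cd68 values themselves, and the members' choice used knowledge of Cd68, so this count is a description without a test. The median SD of log2 level was 0.42 over the members and 0.47 over all tested genes, so most members moved far less than Cd68. In the 5 libraries of low mitochondrial share alone, 17 of 31 members had a ratio that varied less than Cd68 (SD 1.09 there), against 42.2% of all genes.

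Gla, which encodes the lysosomal alpha-galactosidase A, was nearest to Cd68 among the members (SD of the log2 ratio 0.86). Its level was 13.4, 31.0 and 42.2 CPM in Ctrl, 28.6, 15.3 and 30.3 CPM in EpPT1 and 12.5, 33.5 and 35.2 CPM in EpPT2. The same 3 libraries were low as for Cd68, and the groups overlapped. EpPT1 3 was not set apart from EpPT1 1 here, unlike in Cd68.

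Ctsl encodes cathepsin L, an endopeptidase, and its log2 ratio had an SD of 0.87. It had 667, 1095 and 1567 CPM in Ctrl, 1099, 612 and 1564 CPM in EpPT1 and 606, 1509 and 1535 CPM in EpPT2. The 4 libraries of high mitochondrial share were all above 1500 CPM, and Ctrl 1, EpPT1 2 and EpPT2 1 were all below 700. A processed pseudogene on the same strand shares exon positions with Ctsl and had 0 counts.

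Neu1, the lysosomal sialidase, had 62.8, 107 and 164 CPM in Ctrl, 104, 78.3 and 204 CPM in EpPT1 and 84.0, 172 and 174 CPM in EpPT2 (SD of the log2 ratio 0.89). Npc1, a membrane protein that exports cholesterol from the lysosome, had 27.2, 37.1 and 71.9 CPM in Ctrl, 39.5, 28.8 and 69.2 CPM in EpPT1 and 28.9, 66.6 and 68.1 CPM in EpPT2 (SD 0.89). Both were high in the 4 libraries of high mitochondrial share and lowest in Ctrl 1, EpPT1 2 and EpPT2 1 within each group. The value of Npc1 is uncertain, because its exons overlap those of Rmc1 on the opposite strand, which had 8947 counts against its own 6656, and whether counting used strand is not stated.

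Ctsh, the aminopeptidase cathepsin H, ran opposite to Cd68 (SD of the log2 ratio 2.18). It had 182, 66.5 and 56.8 CPM in Ctrl, 76.0, 202 and 69.0 CPM in EpPT1 and 186, 73.1 and 72.0 CPM in EpPT2. Its 3 highest libraries were the 3 lowest for Cd68. Gusb, the beta-glucuronidase, and Npc2, a soluble cholesterol-binding protein, were the other two members whose ratio varied more than Cd68 (1.79 and 1.56). Gusb had its lowest values, 35.3 to 61.8 CPM, in the 4 libraries of high mitochondrial share, and 76.7 to 83.7 CPM in the others.

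**Figure D2:**
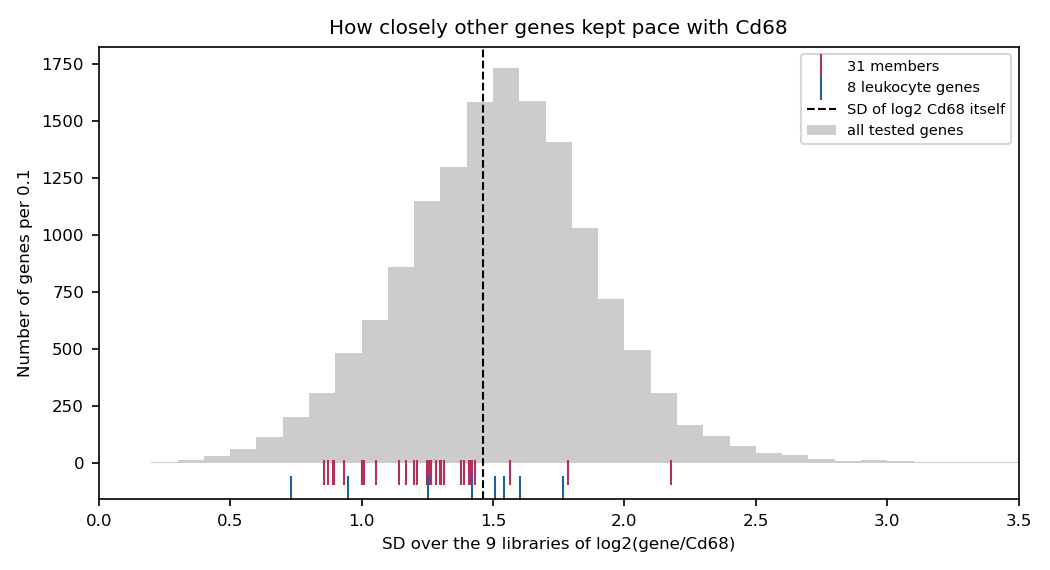
Number of genes (vertical axis) by the SD over the 9 libraries of log2(gene/Cd68) (horizontal axis, bins of 0.1) for all tested genes (bars), with ticks under the axis for 31 members and 8 leukocyte genes. The dashed line at 1.46 is the SD of log2 Cd68 itself, and 28 of the 31 member ticks lie to its left.

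The genes nearest to Cd68 were sought over all tested genes with a mean of at least 5 CPM, leaving out pseudogenes and predicted genes. The 5 nearest were no lysosomal genes of the lists used. They were Selenbp1, a selenium-binding protein gene (SD of the log2 ratio 0.24), the growth factor binding protein gene Igfbp3 (0.25), the matrix protein gene Tnxb (0.31), the syntenin family gene Sdcbp2 (0.33) and Pfkfb4, which encodes a regulator of glycolysis (0.33). Igfbp3 had 60.3, 346 and 578 CPM in Ctrl, 326, 57.7 and 613 CPM in EpPT1 and 67.2, 615 and 578 CPM in EpPT2. Its low, intermediate and high libraries were those of Cd68. All 5 ratios varied less than that of any member. In the lists of other lysosomal genes, of enzyme delivery and of regulators, genes outside the set that were nearer to Cd68 than Gla included Cln3 (0.68), Igf2r (0.71), Gm2a (0.73), Tmem63a (0.74), Ctns (0.75) and Flcn (0.79), named after their values were seen. In the lists of cell type markers, the leukocyte gene Spi1 (0.73) was also nearer than any member. So were the keratin genes Krt14 and Krt5 (0.79 each) and the endothelial gene Pecam1 (0.856, against 0.858 for Gla). Mean levels of Spi1, Krt5 and Pecam1 were low, at 0.52, 1.71 and 1.43 CPM.

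Markers of leukocytes and macrophages were scarce. Of 23 such genes, 19 had a count and 8 were abundant enough to test. Tyrobp, Adgre1, Cd3g and Cpa3 had 0 counts throughout. A count of 0 leaves room for 0.206 CPM in the shallowest library, by counting error alone. The common leukocyte antigen gene Ptprc had 1 to 11 counts per library, the lysosomal membrane gene Laptm5, expressed in blood cells, 7 counts in all, and the macrophage lysozyme gene Lyz2 1 to 13. The monocyte receptor gene Cd14 was the most abundant, at 7.21 to 12.9 CPM, followed by the integrin gene Itgam at 3.00 to 10.7 CPM and the receptor gene Csf1r at 2.18 to 3.19 CPM. Per gene length, mean levels were 43.6 RPKM (CPM per kilobase of gene length) for Cd68, 6.84 for Cd14 and 1.34 for Itgam. In bulk RNA, fewer cells of a type and less RNA per cell cannot be told apart.

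The summed level of the 23 leukocyte genes was 20.3 to 26.2 CPM in Ctrl, 20.7 to 29.3 in EpPT1 and 23.7 to 29.3 in EpPT2. It differed by less than 1.5 times over the libraries in which Cd68 differed by 12.1 times. The largest part of this sum was Cd14, at a mean of 10.7 CPM and an SD of log2 level of 0.26. That SD was 0.19 for Csf1r, 0.62 for Itgam and 1.24 for Spi1, so the sum does not describe each leukocyte gene. Of the 8 tested, 4 had a ratio to Cd68 that varied less than Cd68 itself, against 41.8% of all tested genes. These were Spi1 (0.73), Itgam (0.95), Cd79a (1.25) and Fcer1g (1.42). Mean levels of Cd79a and Fcer1g were low, at 0.75 and 0.67 CPM. Spi1, a transcription factor of myeloid cells, had 0 to 17 counts per library, with 8 in Ctrl 3, 17 in EpPT1 3 and 13 and 16 in EpPT2 2 and 3, against 0 to 9 in the other 5. Itgam was highest in those 4 libraries, at 8.05 to 10.7 CPM, against 3.00 to 5.71 in the others. The part of such cells in the Cd68 values was not tested.

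Keratin genes of luminal epithelium were abundant. Krt8 had 559 to 836 CPM and Krt18 760 to 1127 CPM, while Epcam had 17.7 to 44.8. Mean levels were 434 CPM for Krt19, 12.1 for Krt14 and 1.71 for Krt5. Of the 8 epithelial markers listed, all had a count, but Cdh1 and Trp63 were too scarce to test. Of the fibroblast markers, Thy1 had 0 counts, and the summed level of 744 to 3296 CPM was nearly all Dcn, at 733 to 3288 CPM. That sum was 1302 to 3296 CPM in Ctrl, 744 to 2097 in EpPT1 and 761 to 2123 in EpPT2, and it was lowest in EpPT1 2, EpPT2 1 and Ctrl 1, the 3 libraries in which Cd68 was lowest. Of the 4 tested fibroblast markers, 2 had a ratio to Cd68 that varied less than Cd68 itself (1.46), against 41.8% of all tested genes. These were Dcn (SD of the log2 ratio 0.95) and Pdgfra (1.32). The ratio varied more for Col1a1 (1.57) and Col3a1 (1.79), at mean levels of 1.74 and 1.03 CPM. The part of fibroblast-like expression in the Cd68 values was not tested.

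**Figure D3:**
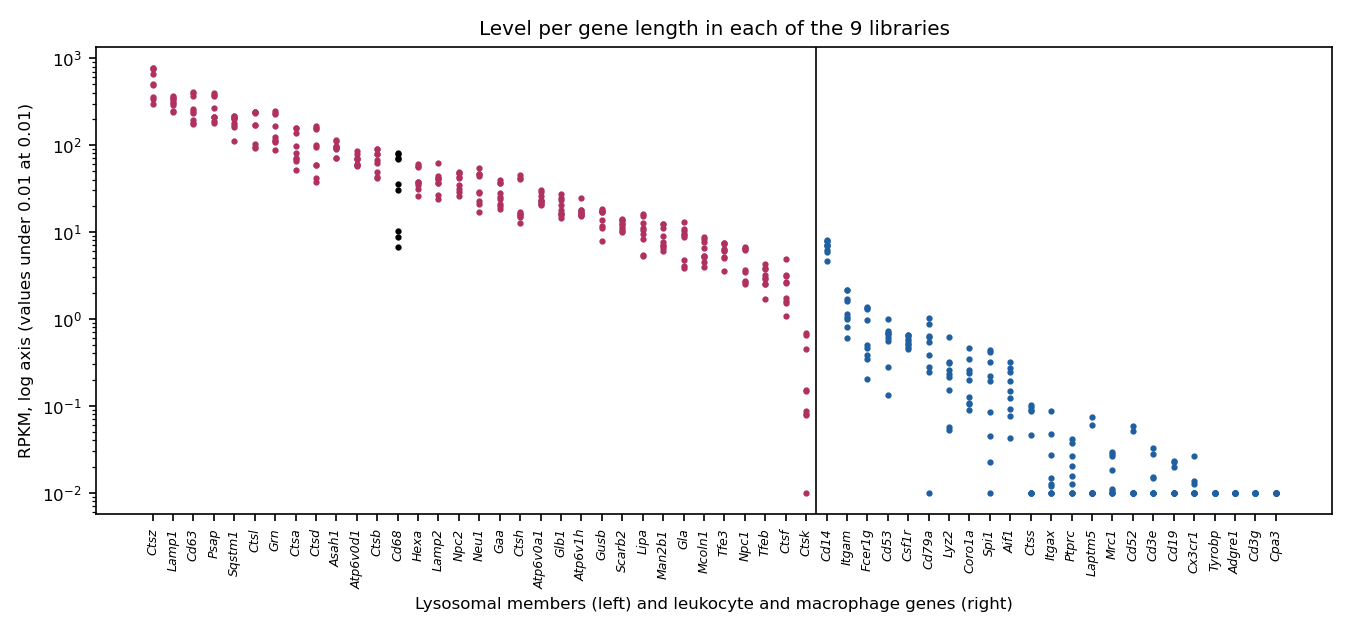
Level per gene length (RPKM, log axis, values under 0.01 drawn at 0.01) of the 33 lysosomal genes (left) and 23 leukocyte and macrophage genes (right), with a point for each of the 9 libraries and Cd68 in black. Cd68 has a mean of 43.6 RPKM, and the highest mean among the leukocyte genes is 6.84 RPKM, for Cd14.

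Many members were split by the mitochondrial share. In 17 of the 32 tested members (53.1%) the 4 libraries of high share all lay above the other 5, against 16.5% of all tested genes. In 1 member, Gusb (3.12%), they all lay below, against 18% of all tested genes. The 17 were the membrane proteins Cd63, Cd68, Lamp1 and Lamp2, the cathepsin genes Ctsa, Ctsb, Ctsl and Ctsz, the hydrolase genes Glb1, Hexa, Lipa, Man2b1 and Neu1, the lipid transfer and cofactor genes Grn, Npc1 and Psap, and Tfe3. No proton pump subunit was among them. The split was found in the counts and not in the labels, and its cause was not tested.

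**Figure D4:**
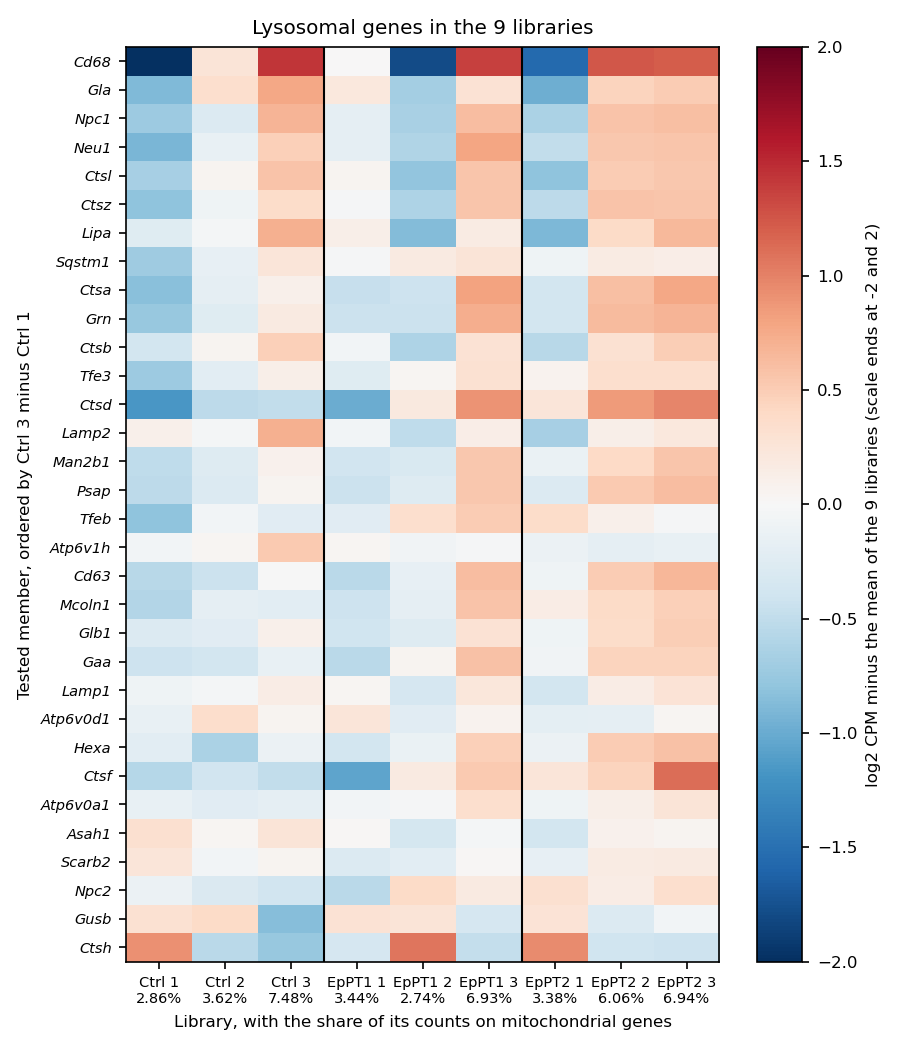
Log2 CPM of the 32 tested members in the 9 libraries, each gene minus its mean over the libraries (colour), ordered by the difference between Ctrl 3 and Ctrl 1, with the mitochondrial share under each library. Ctrl 3, EpPT1 3, EpPT2 2 and EpPT2 3, at 6.06% to 7.48%, share the darkest red for Cd68 at the top, and Ctsh and Gusb at the bottom run the other way.

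The comparisons between groups asked what each exposure did to these genes. In edgeR 0 of 32 members passed in any of the 3 comparisons (0% of all tested genes in each), with a lowest adjusted p of 0.991 for EpPT1 minus Ctrl, 0.376 for EpPT2 minus Ctrl and 1.000 for EpPT2 minus EpPT1. DESeq2 and limma-voom also called 0 members. Over all 14471 genes limma-voom called 0, and DESeq2 called 1 in EpPT1 minus Ctrl, 62 in EpPT2 minus Ctrl and 0 in EpPT2 minus EpPT1. The comparisons with Ctrl share its libraries, so their values for a gene are not independent.

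In EpPT1 minus Ctrl, 21 of 32 members had a log2 difference above 0, against 48% of all genes, with a median of 0.20 against −0.02. None was at an unadjusted p under 0.05 in edgeR in either direction (3.01% of all genes higher, 0.919% lower), but 5 were without EpPT1 1 (13.3% of all genes there, in either direction) and 2 with the mitochondrial share as a covariate (13.6%). Groups did not overlap in 1 higher member, Atp6v0a1 (2.73% of all genes), and in 1 lower member, Asah1 (2.53%). The median SE of a member's difference was 0.32. Without EpPT1 3 the median was −0.15 and 12 members were above 0, and after removal of each library's trend with GC content the median was 0.0047.

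In EpPT2 minus Ctrl, 24 of 32 members were above 0, against 47.9% of all genes, and the median was 0.32 against −0.03. Ctsd, Ctsf, Hexa and Mcoln1 were at an unadjusted p under 0.05 and higher (4 of 32, background 6.88%), and 0 members were lower (background 5.31%). Groups did not overlap in 7 higher members, Atp6v0a1, Ctsd, Ctsf, Gaa, Mcoln1, Npc2 and Tfeb (12.3% of all genes), and in 1 lower member, Atp6v1h (10.9%). The median was 0.18 after the GC trend was removed, 0.21 with the mitochondrial share as a covariate and 0.12 in the 5 libraries of low share. The number of members at an unadjusted p under 0.05 depended on single libraries, and the share of all genes there, 12.2% over both directions, moved with it. It was 1 when Ctrl 1, Ctrl 2 or EpPT2 3 was left out (6.73%, 9.75% and 5.75% of all genes) and 2 when EpPT2 2 was (5.6%). It was 7 without EpPT1 1 (16.3%), 8 without EpPT2 1 (14.2%) and 10 with the mitochondrial covariate (24.4%).

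In EpPT2 minus EpPT1, 26 of 32 members were above 0, against 48.3% of all genes, with a median of 0.21 against −0.01. None was at an unadjusted p under 0.05 (0.0691% of all genes higher, 0.145% lower). Groups did not overlap in 0 higher members (1.26% of all genes) and in 1 lower member, Atp6v1h (1.2%). With the mitochondrial share as a covariate, 16 members were above 0 and the median was 0.03. Without EpPT1 3, 7 members were at an unadjusted p under 0.05 (4.77% of all genes, against 0.214% with every library), and without EpPT1 2 the median was 0.02.

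**Figure D5:**
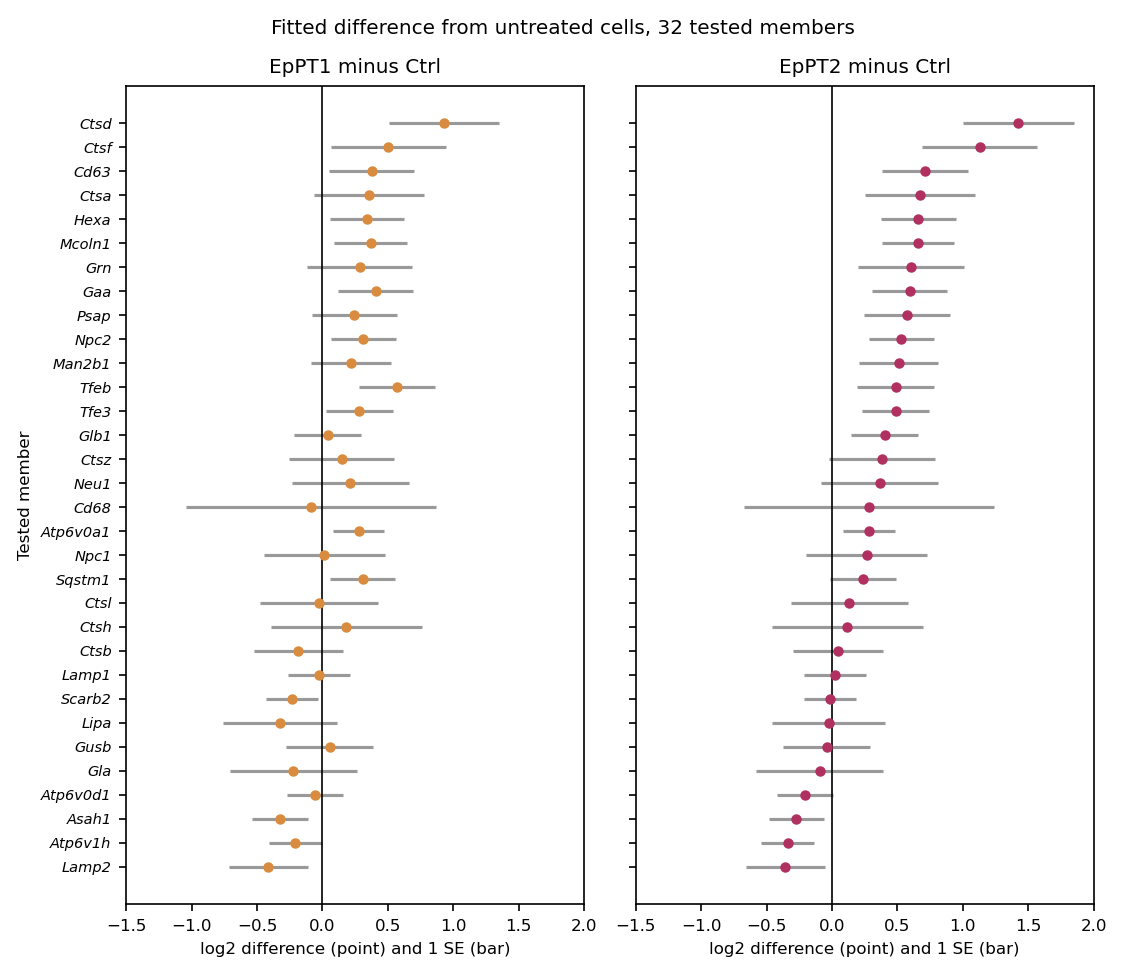
Fitted log2 difference (point) and 1 SE (bar) of the 32 tested members in EpPT1 minus Ctrl (left) and EpPT2 minus Ctrl (right), ordered by the latter. Ctsd has the largest value in both, at 0.93 and 1.43, Lamp2 the lowest, at −0.41 and −0.36, and 0 members passed the test.

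Among the proteases, Ctsd had the largest difference of any member in both comparisons with Ctrl. Ctsd encodes cathepsin D, the main aspartic protease of lysosomes (ENSMUSG00000007891, chromosome 7, 142375911 to 142388038, GRCm38). It had 87.7, 137 and 139 CPM in Ctrl, 99.0, 225 and 368 CPM in EpPT1 and 234, 355 and 388 CPM in EpPT2. Every EpPT2 library lay above every Ctrl library, while EpPT1 1 lay inside the Ctrl range. Group means were 121 ± 29.1, 231 ± 135 and 326 ± 81.3 CPM (mean ± SD, n = 3 each). EpPT2 minus Ctrl gave a log2 difference of 1.43 (SE 0.43, unadjusted p = 0.0073), which did not pass edgeR's test over all genes (adjusted p = 0.376), and EpPT1 minus Ctrl gave 0.93 (SE 0.42, adjusted p = 0.991). The EpPT2 difference was at an unadjusted p under 0.05 in all 20 alternatives, at 1.00 to 1.61, with edgeR, DESeq2 or limma adjusted p values of 0.0024 to 0.919. It passed in 1 of them, edgeR without a filter on low counts, where 268 of 28724 genes passed. It was 1.02 after the GC trend was removed and 1.08 in the 5 libraries of low mitochondrial share. A gene model on the same strand, Gm49369, shares 227 exon bases with Ctsd and had 0 counts.

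Ctsf, the papain-like cathepsin F, had 2.98, 3.41 and 3.15 CPM in Ctrl, 2.14, 5.04 and 6.38 CPM in EpPT1 and 5.24, 6.07 and 9.60 CPM in EpPT2. All EpPT2 libraries lay above all Ctrl libraries, and EpPT1 lay on both sides of Ctrl. The EpPT2 minus Ctrl difference was 1.13 (SE 0.44, edgeR adjusted p = 0.378), and it was 0.65 after the GC trend was removed. EpPT1 minus Ctrl gave 0.50 (SE 0.44) and EpPT2 minus EpPT1 0.63 (SE 0.43), the largest difference of any member in the last comparison.

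Ctsz, the carboxypeptidase cathepsin Z, had the highest level per length of all members, at a mean of 547.5 RPKM. It had 425, 701 and 957 CPM in Ctrl, 727, 485 and 1093 CPM in EpPT1 and 515, 1102 and 1096 CPM in EpPT2. The high and low libraries were those of Ctsl, and the EpPT2 minus Ctrl difference was 0.38 (SE 0.41, adjusted p = 0.692). Of the remaining proteases, Ctsa, the protective protein that also stabilises Neu1, differed by 0.67 (SE 0.42) and Ctsb, the cysteine protease cathepsin B, by 0.05 (SE 0.34) in EpPT2 minus Ctrl. Ctsk stayed between 0 and 1.04 CPM.

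Among the membrane proteins, Cd63, a tetraspanin of late endosomes and exosomes, had 650, 709 and 951 CPM in Ctrl, 663, 860 and 1476 CPM in EpPT1 and 904, 1356 and 1518 CPM in EpPT2. EpPT2 1 lay inside the Ctrl range, so the groups overlapped. EpPT2 minus Ctrl gave 0.71 (SE 0.33, edgeR adjusted p = 0.411), which was 0.10 after the GC trend was removed, and EpPT1 minus Ctrl gave 0.38 (SE 0.32).

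Lamp1 and Lamp2 encode the most abundant glycoproteins of the lysosomal membrane. Lamp1 had 779, 807 and 916 CPM in Ctrl, 843, 650 and 965 CPM in EpPT1 and 642, 910 and 992 CPM in EpPT2, with differences from Ctrl of −0.03 and 0.02 (SE 0.23 each). Lamp2 had 386, 348 and 586 CPM in Ctrl, 345, 251 and 395 CPM in EpPT1 and 226, 390 and 415 CPM in EpPT2. Its differences were the lowest of any member, −0.41 (SE 0.31, edgeR adjusted p = 0.991) for EpPT1 and −0.36 (SE 0.31, edgeR adjusted p = 0.616) for EpPT2. The groups overlapped in both genes, and for Lamp2 in EpPT2 the value was 0.12 after the GC trend was removed. Per length, Lamp1 stood at a mean of 311.7 RPKM and Lamp2 at 38.9. Scarb2, the receptor that carries glucocerebrosidase to lysosomes, was the most even of all tested members, at 62.3 to 89.2 CPM.

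The 9 hydrolases of glycans and lipids differed by −0.27 to 0.66 in EpPT2 minus Ctrl, with 5 above 0 and a median of 0.37. Hexa, the alpha subunit of beta-hexosaminidase, had 69.6, 52.0 and 74.5 CPM in Ctrl, 62.7, 73.5 and 112 CPM in EpPT1 and 74.4, 114 and 121 CPM in EpPT2. EpPT2 1 lay just inside the Ctrl range, and the difference of 0.66 (SE 0.29, edgeR adjusted p = 0.398) was 0.30 after the GC trend was removed. Gaa, the acid alpha-glucosidase that degrades glycogen, had 96.0, 99.0 and 115 CPM in Ctrl and 121, 173 and 173 in EpPT2, with no overlap. Its difference of 0.60 (SE 0.29, edgeR adjusted p = 0.420) was −0.14 after the GC trend was removed.

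Asah1 and Lipa had the lowest differences of the hydrolases in EpPT1 minus Ctrl. Asah1, the acid ceramidase, had 386, 318 and 372 CPM in Ctrl, 314, 242 and 303 CPM in EpPT1 and 241, 328 and 322 CPM in EpPT2. Every EpPT1 library lay below every Ctrl library, and EpPT2 overlapped Ctrl. The differences were −0.32 (SE 0.21) for EpPT1 and −0.27 (SE 0.21) for EpPT2, with edgeR adjusted p values of 0.991 and 0.580. The EpPT2 value was 0.12 after the GC trend was removed. Lipa, the acid lipase, had 24.7, 28.3 and 47.6 CPM in Ctrl, 31.6, 16.0 and 32.7 CPM in EpPT1 and 15.6, 37.7 and 45.5 CPM in EpPT2. It overlapped between all groups, with −0.33 (SE 0.43) for EpPT1. Glb1, the beta-galactosidase, and Man2b1, an alpha-mannosidase, differed by 0.40 (SE 0.26) and 0.51 (SE 0.30) in EpPT2. Gusb gave −0.04 (SE 0.33) in EpPT2 and, at −0.10 (SE 0.33), 1 of the 3 lowest values of EpPT2 minus EpPT1.

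The 4 lipid transfer and cofactor genes were above 0 in all 3 comparisons, with a median of 0.26 in EpPT1 and 0.55 in EpPT2 against Ctrl, and 0 passed the test. Psap, the precursor of the saposins that present lipids to hydrolases, had 486, 581 and 728 CPM in Ctrl, 519, 583 and 1021 CPM in EpPT1 and 582, 1011 and 1077 CPM in EpPT2. EpPT2 1 lay inside the Ctrl range, and the difference was 0.57 (SE 0.33, edgeR adjusted p = 0.471). Npc2 had 157 to 190 CPM in Ctrl and 227 to 259 in EpPT2, which did not overlap, and a difference of 0.53 (SE 0.25, edgeR adjusted p = 0.415). Grn, the progranulin gene, differed by 0.60 (SE 0.40).

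Of the channel and proton pump genes, Mcoln1, the calcium channel TRPML1, had 29.8, 39.4 and 38.7 CPM in Ctrl, 33.8, 39.5 and 66.2 CPM in EpPT1 and 49.6, 58.4 and 62.4 CPM in EpPT2. Every EpPT2 library lay above every Ctrl library. The difference of 0.66 (SE 0.28, edgeR adjusted p = 0.393) was 0.67 after the GC trend was removed.

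The 3 V-ATPase subunits among the members differed in direction. Atp6v0a1, of the membrane sector, had 142, 134 and 138 CPM in Ctrl, 150, 154 and 198 CPM in EpPT1 and 147, 169 and 188 CPM in EpPT2. Both exposed groups lay above Ctrl, by 0.28 (SE 0.20) in each comparison with Ctrl (edgeR adjusted p = 0.991 and 0.542). Atp6v1h, of the catalytic sector, had 161, 172 and 240 CPM in Ctrl, 172, 159 and 165 CPM in EpPT1 and 154, 148 and 152 CPM in EpPT2. EpPT2 lay below both other groups, by −0.34 (SE 0.20) against Ctrl and −0.13 (SE 0.20) against EpPT1, and the first was 0.14 after the GC trend was removed. Atp6v0d1 had 107, 152 and 124 CPM in Ctrl, 141, 102 and 126 CPM in EpPT1 and 105, 105 and 123 CPM in EpPT2, and overlapped between all groups (−0.14, SE 0.21, in EpPT2 minus EpPT1, the lowest value of that comparison).

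Of the regulators, Tfeb had 9.62, 16.3 and 14.3 CPM in Ctrl, 14.4, 21.3 and 24.0 CPM in EpPT1 and 21.8, 18.0 and 16.6 CPM in EpPT2. EpPT2 lay just above Ctrl in every library, and EpPT1 1 lay inside the Ctrl range. The differences from Ctrl were 0.57 (SE 0.29) for EpPT1 and 0.49 (SE 0.29) for EpPT2, with edgeR adjusted p values of 0.991 and 0.491. After the GC trend was removed they were −0.053 and −0.54, so the direction depended on that step. At 63.2% GC, Tfeb is the member richest in GC.

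Tfe3 had 33.1, 47.1 and 59.2 CPM in Ctrl, 46.1, 56.3 and 67.3 CPM in EpPT1 and 57.2, 69.1 and 69.3 CPM in EpPT2. The groups overlapped, and EpPT2 minus Ctrl was 0.49 (SE 0.26, edgeR adjusted p = 0.445). Sqstm1, which encodes the autophagy receptor p62, had 372, 542 and 717 CPM in Ctrl, 601, 692 and 724 CPM in EpPT1 and 572, 684 and 665 CPM in EpPT2. The Ctrl libraries spanned the whole range of EpPT2, and the differences from Ctrl were 0.31 and 0.24 (SE 0.25 each). The EpPT2 value was −0.0067 after the GC trend was removed. These are transcript levels, and the location or phosphorylation of TFEB and TFE3 was not measured.

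Other genes of the pathway, listed by role, gave no call in edgeR either. The counts of these lists stand beside shares over all tested genes in EpPT2 minus Ctrl. Those shares were 47.9% above 0, and 6.88% higher and 5.31% lower at an unadjusted p under 0.05. Of 29 further hydrolases tested, 24 were above 0 in EpPT2 minus Ctrl, with a median of 0.24, 5 at an unadjusted p under 0.05 and higher, and 0 lower. Plbd2, a phospholipase B-like protein, had 40.8, 59.6 and 42.0 CPM in Ctrl and 75.9, 105 and 109 in EpPT2, a difference of 1.02 (SE 0.29, edgeR adjusted p = 0.376). Hyal2, a hyaluronidase, had 20.1 to 26.4 CPM in Ctrl and 44.3 to 57.9 in EpPT2, a difference of 1.05 (SE 0.36, edgeR adjusted p = 0.376). In both genes the 2 groups did not overlap, and the differences were 0.54 and 0.69 after the GC trend was removed.

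Of 17 further membrane proteins, 12 were above 0 (median 0.27) and 1 was at an unadjusted p under 0.05. Tmem192 gave 0.61 (SE 0.24) and the lipid transporter gene Abca2 0.61 (SE 0.30), and the latter was 0.052 after the GC trend was removed. Of 10 genes that deliver enzymes to lysosomes, 9 were above 0 (median 0.32), with 2 at an unadjusted p under 0.05 and higher and 0 lower. Nagpa, which uncovers the mannose 6-phosphate tag, gave 0.68 (SE 0.26), and the adaptor gene Gga1 0.73 (SE 0.33), and both were below 0 after the GC trend was removed (−0.14 and −0.22).

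Of 13 further V-ATPase subunits, 6 were above 0, with a median of −0.06, 1 at an unadjusted p under 0.05 and higher and 2 lower. Atp6v0c, of the membrane ring, had 12.3, 28.6 and 52.0 CPM in Ctrl and 62.3, 111 and 102 in EpPT2, a difference of 1.57 (SE 0.62, edgeR adjusted p = 0.380). Atp6v1a, the catalytic subunit, had 177, 195 and 134 CPM in Ctrl and 109, 87.5 and 85.1 in EpPT2, a difference of −0.85 (SE 0.28, edgeR adjusted p = 0.376). The 2 subunits lay outside the Ctrl range in opposite directions. After the GC trend was removed they gave 1.48 and −0.51. Without a filter on low counts Atp6v0c passed edgeR's test (adjusted p = 0.0015).

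Of 17 regulators around mTORC1 and the TFE factors, 6 were above 0 (median −0.14), with 1 at an unadjusted p under 0.05 and higher and 2 lower. Lamtor1, which anchors mTORC1 to the lysosome, gave 0.86 (SE 0.31) and the small GTPase gene Rraga −0.64 (SE 0.24). Of 21 autophagy genes, 10 were above 0 (median −0.01), and 4 were at an unadjusted p under 0.05, each lower. The autophagy receptor gene Tax1bp1 gave −0.75 (SE 0.24) and Uvrag, of a lipid kinase complex in autophagy, −0.60 (SE 0.21). With the GC trend removed these were −0.29 and −0.59. None of these passed edgeR's test (lowest adjusted p of a list 0.376 to 0.380). Of the 8 tested leukocyte genes, 6 were above 0 in EpPT2 minus Ctrl, with a median of 0.49 and 0 calls in edgeR. At an unadjusted p under 0.05, 1 of them was higher and 0 lower.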

How the data were processed

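Total RNA of 9 HC11 libraries was read from 1 table of raw counts per gene deposited by the authors, in which columns carry the library names of the labels. Bowtie 0.12.2 and build mm8 are named in the submitters' processing notes, but start and end equal GENCODE mouse release 21 (GRCm38) for 53585 of 54495 gene IDs (98.3%), which is the build used here. For the counting tool, strand use and filters, the sources used here give nothing. Values were whole, totals differed, and no 2 libraries agreed within sampling noise (lowest chi-square per gene 4.95). The gene length column deposited by the authors was used for RPKM only. The series title names human cells, the other labels and the gene IDs mouse.

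In R 4.3.3, edgeR 4.0.16 was fitted to all 9 libraries and 14471 genes (TMM scaling, filterByExpr, group only, 6 residual degrees of freedom, quasi-likelihood test, two-sided, Benjamini-Hochberg over all genes, threshold 0.05). Log2 levels used a prior count of 2. A count of 0 allows 3 counts, or 0.174 to 0.206 unscaled CPM, for counting error only. The biological coefficient of variation was 39.3%.

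The members, gene lists and tests were chosen with earlier results of these data known. Values per library, or for Gusb their ranges, are given for Cd68, the regulators, the 4 members nearest to Cd68, the 4 highest per length and the 3 with the largest difference in each direction of each comparison. Outside the set, named genes were drawn mainly from the 5 genes nearest to Cd68, leukocyte genes with a count and up to 2 genes per list with the smallest p. Only some of these are shown, with values per library, ranges, ratios or differences. Ctsh, Hexa, Mcoln1, Gaa, Npc2, Atp6v0a1 and Gusb were named after their values were seen. Alternatives were DESeq2 size factors, no filter, 5 CPM in 3 libraries, DESeq2 1.42.0, limma-voom (3.58.1), a replicate block, the mitochondrial share as a covariate, a spline of 5 degrees of freedom on gene GC content as an offset (13 genes had no value), a fit restricted to the 6 libraries of a comparison, and each library left out in turn. The 5 libraries of low mitochondrial share alone were added after the data were seen. The scripts were tested on simulated data.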

Additional observations from a re-analysis of the deposited data

How the results depend on the processing

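Over 20 alternatives per comparison, the count of members that passed stayed at 0, except in EpPT2 minus Ctrl without a filter on low counts, where it was 1 (Ctsd, log2 difference 1.44, edgeR adjusted p = 0.0024), among 268 calls over 28724 genes. The median member difference ranged from −0.15 to 0.41 in EpPT1 minus Ctrl, from 0.12 to 0.55 in EpPT2 minus Ctrl and from 0.02 to 0.48 in EpPT2 minus EpPT1 when 1 library was left out. The sign change, at −0.15, came without EpPT1 3. The number of members whose ratio to Cd68 varied less than Cd68 itself was 17 in the 5 libraries of low mitochondrial share. It was 25 to 28 with 1 library left out. Where 1 library is left alone in its group, it is assumed to vary like the others. Of 41 differences of single genes, 27 kept their sign throughout and 14 did not.

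Cd68 changed sign in EpPT1 minus Ctrl with limma-voom (0.018), the replicate block (0.38), the mitochondrial covariate (0.081), the block with the GC trend removed (0.26) and single libraries left out (−1.09 to 0.87). In EpPT2 minus Ctrl it did so with the mitochondrial covariate (−0.20), in the 5 libraries (−1.04) and over left-out libraries (−0.22 to 1.24). In EpPT2 minus EpPT1 the corresponding values were −0.28, −0.92 and −0.11 to 1.37. Gusb there gave 0.13 with the covariate, 0.00096 in the 5 libraries and −0.28 to 0.021 over left-out libraries. In EpPT1 minus Ctrl, Tfeb gave −0.053 with the GC trend removed and −0.090 with the block added, and Lipa 0.0025 with both and −0.50 to 0.012 over left-out libraries. In EpPT2 minus Ctrl, removing the GC trend, alone and then with the replicate block, gave 0.12 and 0.12 for Lamp2, 0.14 and 0.17 for Atp6v1h, 0.12 and 0.11 for Asah1, −0.54 and −0.57 for Tfeb, −0.14 and −0.15 for Gaa, −0.14 and −0.12 for Nagpa and −0.22 and −0.20 for Gga1. Sqstm1 gave −0.0067 with the GC trend removed. The cause of these sign changes was not tested.

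Libraries of the same number had correlations of their deviations from the group means of 0.15, 0.73 and 0.19 for number 1, 0.064, −0.16 and −0.64 for number 2 and 0.73, 0.63 and 0.64 for number 3. Ctrl 2 did not correlate best with its own number. Among EpPT1 libraries, Ctrl 1 had a higher correlation with EpPT1 2 (0.65) than with EpPT1 1 (0.15). EpPT1 2 had 0.75 with EpPT2 1 against −0.64 with EpPT2 2, and EpPT2 2 had 0.67 with EpPT1 3. The deviations also carry the split by mitochondrial share, so these values cannot show whether the numbers pair the libraries. With a replicate block, 0 members passed in any comparison, the medians were 0.22, 0.40 and 0.21, and 11 members rather than 4 were at an unadjusted p under 0.05 in EpPT2 minus Ctrl, while the share of all genes went from 12.2% to 21.1%. At this spread the median SE of a member's difference was 0.32, and Ctsf, at a mean of 4.89 CPM, had the fewest counts of the tested members.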
